A study of Homo sapiens with 24 samples.

Results

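The p53 target genes described here are 33 genes reported to be activated by the tumour suppressor p53, among them MDM2, DDB2, BBC3 and BTG2, chosen by name. They were chosen with earlier results of these data known. All 33 were found by gene symbol, once each, among the 58174 symbols analysed in every one of 24 libraries. The libraries are poly(A) RNA of HEK293A cells, an adherent line of human embryonic kidney origin, seeded in serum-containing medium on fibronectin-coated hydrogels. Hydrogels were either stiff (40 kPa) or soft (1 kPa), and the labels name no other treatment. The cells were RAP2 tKO (labelled as knockout of RAP2A, RAP2B and RAP2C), LATS dKO (LATS1 and LATS2), YAP/TAZ dKO (YAP and TAZ, gene WWTR1) or wild type (WT), with 3 libraries for each of the 8 combinations of genotype and stiffness. The sources used here give neither the editing method nor the number of clones per line, so a knockout and the history of its line cannot be told apart.

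p53 is a transcription factor that MDM2 holds at a low level by ubiquitination, and that DNA damage and other stresses free from this control. It binds pairs of a short half-site near its target genes, whose products arrest the cell cycle, repair DNA, start apoptosis through mitochondria or death receptors, and feed back on p53 itself. HEK293 cells carry adenoviral E1A and E1B genes. The large E1B protein binds p53 and represses its activation of genes, so HEK293 cells hold much p53 whose output is restrained. Hippo signalling runs through LATS kinases, which phosphorylate YAP and TAZ and keep them from their target genes. RAP2 GTPases act upstream of LATS when cells sense a soft matrix. The series asks how expression responds to matrix stiffness and what RAP2 and Hippo signalling have to do with it.

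The libraries held an estimated 18.5 to 40.3 M fragments (M, mega), and all values are gene FPKM as deposited, that is fragments scaled to transcript length and library depth. LATS1 fell by 1.08 in LATS dKO cells relative to WT on the log2(FPKM + 1) scale used throughout. In YAP/TAZ dKO cells YAP1 fell by 2.18 and WWTR1 by 1.29 on that scale. RNA of LATS2 in LATS dKO cells differed by 0.32 (adjusted p = 0.091), and RAP2A, RAP2B and RAP2C in RAP2 tKO cells by -0.31 (adjusted p = 0.00397), 0.26 (adjusted p = 0.00084) and 0.17 (adjusted p = 0.238), so these RNAs give no uniform check of the labels. CTGF, a standard YAP and TAZ target, differed between 40 and 1 kPa by 1.64 (adjusted p = 7.24e-13) in WT cells and by -0.01 (adjusted p = 0.99) in YAP/TAZ dKO cells. In the YAP/TAZ dKO libraries CTGF lay at only 0.152 to 0.278 FPKM, a level at which this scale can show little change. RAP2 tKO 40 kPa replicate 3 and LATS dKO 40 kPa replicate 1 stood apart, with deviations from their groups that followed the GC content of genes (rank correlation across genes -0.597 and -0.567). Both were low for GC-rich members such as BBC3, PHLDA3, FDXR and BAX. Of 7 genes usual in HEK293 cells the summed FPKM lay between 518 and 1191 in every library. By median VIM, KRT8 and KRT18 led, at 224, 249 and 244 FPKM. NEFL had a median of 17.5 FPKM but ranged from 10.7 to 554 FPKM, above the highest value of any other of the 7. The make-up of the sum thus differed between libraries, and the cause was not tested. PAX2 reached at most 1.30 FPKM and NEFM was at 0 in 8 libraries. Summed markers reached at most 2.18 FPKM for immune cells (5 genes, PTPRC at 0 in 23 libraries), 0.621 FPKM for endothelial cells (3 genes) and 16.4 FPKM for fibroblasts (5 genes, DCN at 0 in all 24), the last made up mostly of COL1A1 and LUM. The fibroblast sum was 12.5 to 16.4 FPKM in LATS dKO libraries and 4.71 to 7.63 FPKM in all others, and its part in the differences of LATS dKO cells was not tested.

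The members spanned a wide range of levels. BAX, the pore-forming protein of mitochondrial apoptosis, had the highest median over the 24 libraries at 356 FPKM, followed by CCNG1 at 239.8 FPKM, MDM2 at 162 FPKM, FBXO22 at 112 FPKM and PMAIP1 at 104 FPKM. At the other end stood SPATA18 at 1.43 FPKM, TP53INP1 at 0.428 FPKM and TRIM22, an interferon-inducible ubiquitin ligase, which lay between 0 and 0.417 FPKM and was the 1 member left out of the tests for low values. The half-width of the deposited confidence interval, as a median over libraries, ran from 4.11% for PMAIP1 to 44.6% for SPATA18 among the 32 members tested, so low members such as SPATA18 and TP53I3 (36.7%) were measured least precisely. The interval covers the authors' estimation error only, not the spread between libraries.

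Few p53 targets passed the threshold for stiffness, and DDB2 led those that did (the plot of FPKM by library, and the plot of changes by genotype). A member was called where limma's adjusted p over the 15828 genes tested was below 0.05. In RAP2 tKO cells 4 of 32 members were called between 40 and 1 kPa, 1 higher (PLK2) and 3 lower (BTG2, CCNG2 and DDB2), where 3.87% of all genes were called, 0.986% higher and 2.88% lower. LATS dKO cells had 0 members called by limma, with 1 at an unadjusted p below 0.05, where 0.708% of all genes were called. For YAP/TAZ dKO cells 1 member, DDB2, was called higher at 40 kPa, where 0.347% of all genes were called and 0.12% called higher. In WT cells 2 members were called, both lower (BTG2 and DDB2), where 0.986% of all genes were called and 0.663% called lower. The median member change was -0.12 in RAP2 tKO, -0.00272 in LATS dKO, 0.07 in YAP/TAZ dKO and -0.12 in WT cells, beside -0.04, -0.03, -0.01 and -0.03 over all genes tested. A change above 0 was seen in 9, 15, 24 and 6 of the 32 members in that order of genotypes. In the same order limma gave an unadjusted p below 0.05 for 15, 1, 3 and 9 members. The shares of all genes above 0 or at that unadjusted p are not given here, so neither count is a result about the members. Later counts at an unadjusted p have the same limit. The members called were 12.5%, 0%, 3.12% and 6.25% of those tested. The shares in RAP2 tKO, YAP/TAZ dKO (1 member) and WT cells lay above those of all genes. The members were chosen with earlier results of these data known, so this excess is no support for a response of the group. In bulk RNA, fewer cells of a kind and less RNA per cell cannot be told apart.

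**Figure D1:**
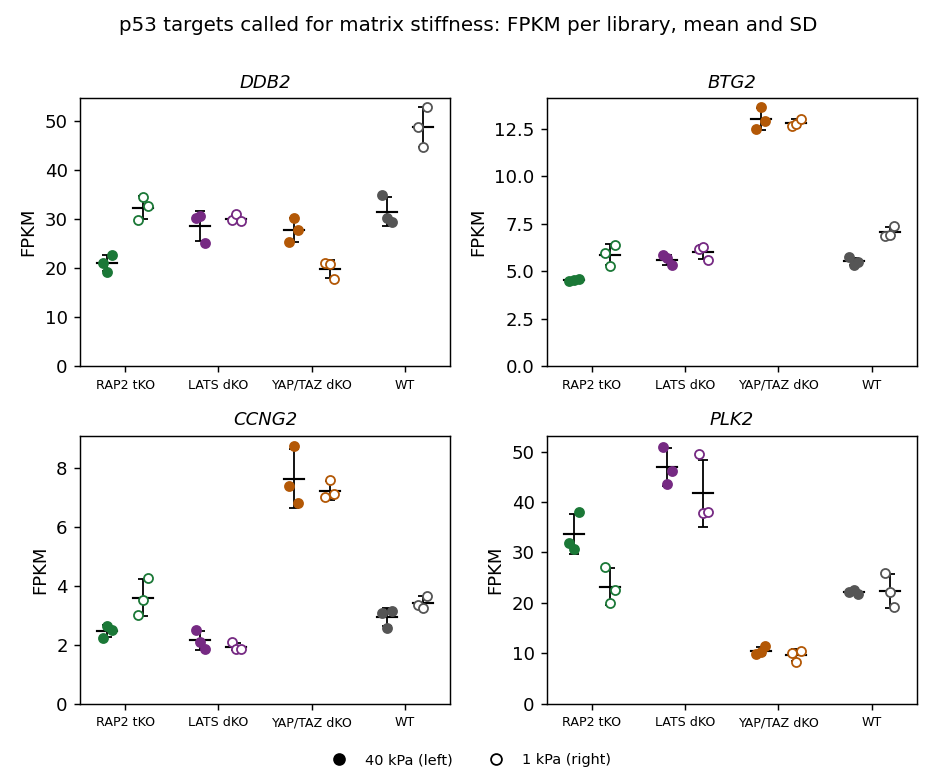
FPKM of DDB2, BTG2, CCNG2 and PLK2 in each library (vertical axes, FPKM from 0), by genotype, with filled points for 40 kPa and open points for 1 kPa. Bars are the mean and SD of 3 libraries. DDB2 at 40 kPa lies below its 1 kPa values in RAP2 tKO and WT cells, overlaps them in LATS dKO cells and lies above them in YAP/TAZ dKO cells (25.4 to 30.2 against 17.7 to 21.0 FPKM).

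DDB2 encodes the subunit of the UV-damaged DNA-binding complex that recognises lesions for nucleotide excision repair. It is listed at chr11:47236016-47260791 (hg19, ENSG00000134574.11). In RAP2 tKO cells DDB2 had 21.1, 19.3 and 22.6 FPKM at 40 kPa and 29.8, 34.5 and 32.6 FPKM at 1 kPa. In LATS dKO cells it had 30.2, 30.7 and 25.1 FPKM at 40 kPa and 29.8, 31.0 and 29.5 FPKM at 1 kPa. YAP/TAZ dKO cells had 25.4, 30.2 and 27.7 FPKM at 40 kPa and 20.97, 20.9 and 17.7 FPKM at 1 kPa. WT cells stood highest on the soft matrix, with 34.8, 30.3 and 29.4 FPKM at 40 kPa and 48.8, 44.8 and 52.9 FPKM at 1 kPa. The stiff and soft libraries did not overlap in RAP2 tKO, YAP/TAZ dKO or WT cells, and they did overlap in LATS dKO cells.

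The change of DDB2 between 40 and 1 kPa (log2 ± SE, limma) was -0.60 ± 0.09 (adjusted p = 0.00153) in RAP2 tKO cells and -0.62 ± 0.09 (adjusted p = 0.00217) in WT cells. It was 0.46 ± 0.09 (adjusted p = 0.0355), in the opposite direction, in YAP/TAZ dKO cells and -0.07 ± 0.09 (adjusted p = 0.81) in LATS dKO cells. Tested as a difference of responses, the change in YAP/TAZ dKO cells exceeded that in WT cells by 1.08 ± 0.13 (adjusted p = 0.000293), the 1 member called among 32, where 0.392% of all genes were called. This difference held in all 31 alternatives, with an adjusted p of at most 0.00561. The response of LATS dKO cells differed from that of WT cells by 0.54 ± 0.13 (adjusted p = 0.136), short of the threshold, where 0 members and 0.0632% of all genes were called and 8 members had an unadjusted p below 0.05. Without LATS dKO 40 kPa replicate 3 this difference was 0.63 and was called (adjusted p = 0.047). The response of RAP2 tKO cells differed from that of WT by 0.02 ± 0.13 (adjusted p = 0.976), where 0 members and 0.0505% of all genes were called and 4 members had an unadjusted p below 0.05. These tests share the WT libraries.

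The rise of DDB2 within YAP/TAZ dKO cells was itself near the threshold. Its call was lost in 13 of 31 alternatives, with adjusted p up to 0.225. Among them were the removal of any YAP/TAZ dKO library other than 40 kPa replicate 1, and of WT 1 kPa replicate 1, WT 40 kPa replicate 2, RAP2 tKO 1 kPa replicate 3 or LATS dKO 1 kPa replicate 1 or 2. The lower levels at 40 kPa in RAP2 tKO and WT cells were lost only when those groups were fitted alone (adjusted p = 0.167 and 0.0535), among the 31 alternatives run.

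Of the members with a promoter sequence, DDB2 was the 1 with a pair of p53 half-sites in the stretch searched. Its letters are therefore shown here beside those of the 4 other members with a half-site. RefSeq promoters (GRCh38.p14, 250 bases before to 50 after each start) were matched for 24 of the 33 members, 37 promoters in all. A script searched both strands for the p53 half-site of 10 letters, which reads the same on either strand, and for a pair of half-sites at most 13 bases apart, which by its make-up holds 2 half-sites. A half-site stood in 6.63% of all 35116 promoters and in 5 of the 37 promoters of members (5 members). A pair stood in 0.0285% of all promoters and in 1 of the 37, that of DDB2. Capitals mark the half-sites. The letters run 5′ to 3′ along the gene's strand.
DDB2 (chr11:47214975-47215004, plus strand): gtttGAACAAGCCCtGGGCATGTTTggcgg
PLK2 (chr5:58460199-58460228, minus strand): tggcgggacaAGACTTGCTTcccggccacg
AEN (chr15:88621296-88621325, plus strand): agtcggagccGGGCTTGCCCgggcatgtgg
FDXR (chr17:74872986-74873015, minus strand): gggcaggagcGGGCTTGCCCtgcggagcag
FAS (chr10:88991299-88991328, plus strand): cggaactcctGGACAAGCCCtgacaagcca
In DDB2 the pair spans positions 6 to 26 after the RefSeq start. The half-sites begin 132 bases before the start in PLK2, 34 in AEN, 11 in FDXR and 122 in FAS. The letters CATTCC are the core of TEAD binding sites through which YAP and TAZ act. They stood on either strand in 14% of all promoters and in 4 of the 37 promoters of members (4 of the 24 members). Sites outside the stretch searched, or that depart from the letters searched, were not looked for. A match of letters describes the sequence and is no measurement of binding.

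BTG2, an antiproliferative factor that recruits the CCR4-NOT deadenylase, was the other member lower at 40 kPa in both RAP2 tKO and WT cells. BTG2 (chr1:203274619-203278730, hg19) had 4.50, 4.55 and 4.58 FPKM at 40 kPa and 5.96, 5.28 and 6.37 FPKM at 1 kPa in RAP2 tKO cells. In WT cells it had 5.73, 5.36 and 5.50 FPKM at 40 kPa and 6.86, 6.91 and 7.39 FPKM at 1 kPa. Neither pair of groups overlapped. The changes were -0.31 ± 0.06 (adjusted p = 0.00654) in RAP2 tKO cells and -0.30 ± 0.06 (adjusted p = 0.0142) in WT cells. LATS dKO cells had 5.85, 5.68 and 5.32 FPKM at 40 kPa and 6.17, 6.27 and 5.62 FPKM at 1 kPa, and YAP/TAZ dKO cells 12.5, 13.7 and 12.9 and 12.6, 12.8 and 13.04 FPKM at 40 and 1 kPa. There the changes were -0.08 ± 0.06 (adjusted p = 0.599) and 0.02 ± 0.06 (adjusted p = 0.976), and the stiff and soft libraries overlapped in both lines. The call in WT cells was lost without WT 1 kPa replicate 3, WT 40 kPa replicate 2 or WT 40 kPa replicate 3 (adjusted p up to 0.0958).

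CCNG2 and PLK2 were called for stiffness in RAP2 tKO cells. CCNG2, an unconventional cyclin linked to growth arrest, is listed on a wide locus (chr4:78078304-78354542, hg19) that may hold other transcripts. It had 2.23, 2.64 and 2.49 FPKM at 40 kPa and 2.996, 3.51 and 4.24 FPKM at 1 kPa in RAP2 tKO cells, against 3.08, 2.57 and 3.16 FPKM and 3.36, 3.23 and 3.65 FPKM in WT cells. The groups did not overlap in RAP2 tKO cells or in WT cells. The change was -0.40 ± 0.10 (adjusted p = 0.0352) in RAP2 tKO and -0.17 ± 0.10 (adjusted p = 0.566) in WT cells, and the difference between these responses was -0.23 ± 0.14 (adjusted p = 0.748). PLK2, a polo-like kinase induced by stress, had 31.9, 30.7 and 38.1 FPKM at 40 kPa and 27.1, 19.9 and 22.5 FPKM at 1 kPa in RAP2 tKO cells, without overlap. WT cells had 22.2, 22.6 and 21.7 FPKM and 25.8, 22.1 and 19.2 FPKM, which overlapped. The change was 0.52 ± 0.13 (adjusted p = 0.0306) in RAP2 tKO and -0.00 ± 0.13 (adjusted p = 1) in WT cells, with a difference of 0.52 ± 0.18 (adjusted p = 0.655). Both calls, CCNG2 and PLK2, were lost without RAP2 tKO 40 kPa replicate 3, 1 of the libraries that stood apart by GC content, and without RAP2 tKO 1 kPa replicate 2 or 3, each of which left 2 members called. CCNG2 was also lost without RAP2 tKO 40 kPa replicate 1. Without RAP2 tKO 40 kPa replicate 1 or 2, or without LATS dKO 40 kPa replicate 1, 7 members were called, 6 of them lower. The share of all genes called in those fits is not given here, so these counts are no result about the members.

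**Figure D2:**
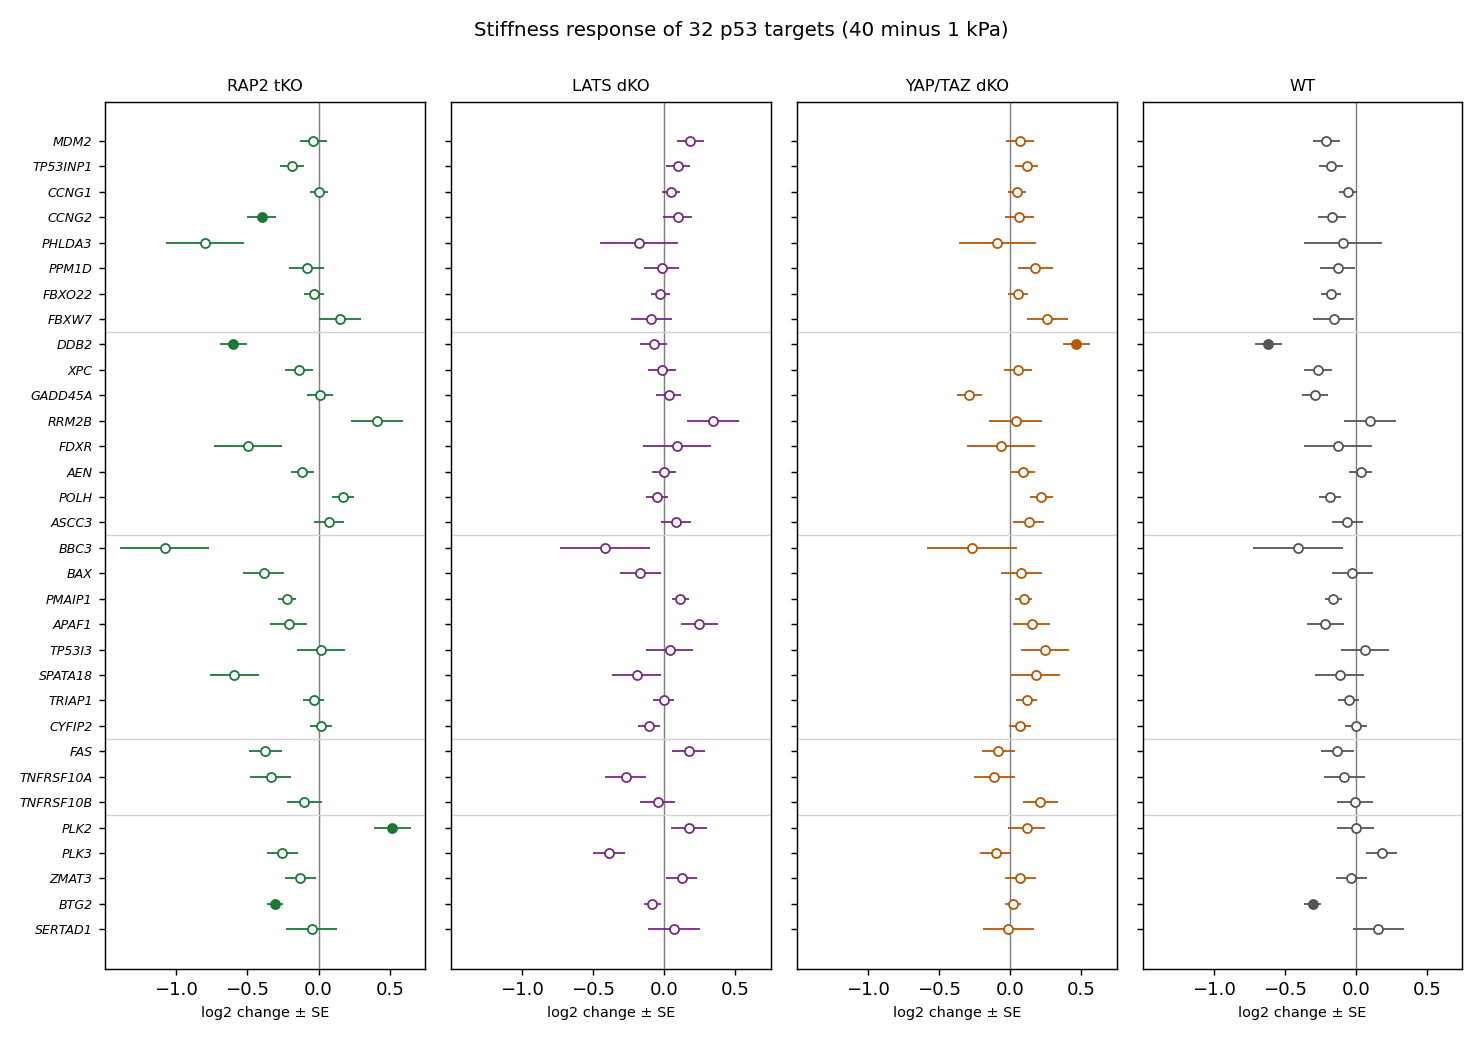
Change of each of the 32 tested p53 targets between 40 and 1 kPa (horizontal axes, log2 units on the log2(FPKM + 1) scale, bars ± SE) in RAP2 tKO, LATS dKO, YAP/TAZ dKO and WT cells. Filled points passed the adjusted threshold, and lines part the functional groups. DDB2 is filled on the left of 0 in RAP2 tKO and WT cells and on the right in YAP/TAZ dKO cells, where it reached 0.46.

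No other member passed the threshold for stiffness in any genotype. BBC3 (PUMA, a BH3-only activator of apoptosis) had 9.44, 9.03 and 2.87 FPKM at 40 kPa and 15.02, 15.6 and 13.5 FPKM at 1 kPa in RAP2 tKO cells, where replicate 3 at 40 kPa stood apart by GC content. Its change there was -1.08 ± 0.32 (adjusted p = 0.0618), and with a correction for GC content it was -0.57 and called (adjusted p = 0.000823). In WT cells BBC3 had 12.8, 10.3 and 11.8 FPKM at 40 kPa and 15.4, 17.4 and 14.3 FPKM at 1 kPa, without overlap, and a change of -0.40 ± 0.32 (adjusted p = 0.7). PHLDA3, an inhibitor of AKT, had 12.6, 12.3 and 3.66 FPKM at 40 kPa in RAP2 tKO cells, with the lowest value again in replicate 3, and 17.1, 14.4 and 14.9 FPKM at 1 kPa, a change of -0.80 ± 0.27 (adjusted p = 0.104). PMAIP1 (NOXA, another BH3-only protein) changed by -0.22 ± 0.06 (adjusted p = 0.0506) in RAP2 tKO cells, just short of the threshold.

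A few genes outside the 33 moved with stiffness as DDB2 did. Among them EDA2R and MIR34AHG are reported p53 targets, named here after their values were seen. Of the 105 genes called lower at 40 kPa in WT cells and the 19 called higher at 40 kPa in YAP/TAZ dKO cells, 5 were the same (4.76% and 26.3% of the lists): DDB2, EDA2R, MIR34AHG, IGFBP5 and MIR17HG. These comparisons share no library, but both take the spread of each gene from 1 fit of all 24 libraries, so the lists are not independent. In the same direction, 6 genes were lower at 40 kPa in both genotypes (5.71% of the 105 and 16.7% of the 36 called lower in YAP/TAZ dKO cells), namely EMP3, GNG4, H1F0, PHYH, TPPP3 and TSC22D3. EDA2R, a receptor of the tumour necrosis factor family, had 3.17, 2.83 and 2.97 FPKM at 40 kPa and 1.99, 2.03 and 1.83 FPKM at 1 kPa in YAP/TAZ dKO cells, against 2.68, 2.54 and 2.82 and 3.62, 3.37 and 3.51 FPKM in WT cells. MIR34AHG, the host transcript of the microRNA miR-34a, had 6.14, 6.92 and 6.38 FPKM at 40 kPa and 4.91, 4.96 and 5.25 FPKM at 1 kPa in YAP/TAZ dKO cells, against 3.90, 4.47 and 4.31 and 5.88, 6.41 and 6.07 FPKM in WT cells. In each of these 4 comparisons the stiff and soft libraries did not overlap. IGFBP5 and MIR17HG moved the same way. IGFBP5 had 11.1, 10.7 and 9.45 FPKM at 40 kPa and 7.39, 6.70 and 6.86 FPKM at 1 kPa in YAP/TAZ dKO cells. For WT cells these were 1.92, 1.61 and 2.08 and 2.76, 3.68 and 3.41 FPKM. MIR17HG had 21.8, 22.8 and 22.4 FPKM at 40 kPa and 16.8, 17.3 and 16.3 FPKM at 1 kPa in YAP/TAZ dKO cells. Its WT values were 14.7, 14.4 and 15.4 and 18.8, 16.9 and 18.9 FPKM. The responses of YAP/TAZ dKO and WT cells differed by 0.73 ± 0.09 (adjusted p = 0.000456) for EDA2R and by 0.75 ± 0.08 (adjusted p = 3.48e-05) for MIR34AHG. Both were picked by opposite calls in these same libraries, so these differences follow from the pick and are no support. In RAP2 tKO cells the changes were -0.30 ± 0.07 (adjusted p = 0.0178) and -0.56 ± 0.06 (adjusted p = 8.66e-06), and in LATS dKO cells 0.14 ± 0.07 (adjusted p = 0.379) and -0.08 ± 0.06 (adjusted p = 0.62). EDA2R was at the edge of the threshold in WT cells, -0.29 ± 0.07 (adjusted p = 0.0404), and lost its call without any 1 of 14 libraries, namely every WT library, RAP2 tKO 1 kPa replicates 2 and 3, LATS dKO 1 kPa replicates 2 and 3, YAP/TAZ dKO 1 kPa replicates 1 and 2 and YAP/TAZ dKO 40 kPa replicates 2 and 3 (adjusted p up to 0.18). Its call in RAP2 tKO cells was lost without RAP2 tKO 1 kPa replicate 1 or 3 (adjusted p up to 0.0768). The call of MIR34AHG in YAP/TAZ dKO cells was lost without YAP/TAZ dKO 1 kPa replicate 1 or 2 or 40 kPa replicate 2 (adjusted p up to 0.11).

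CDKN1A, the cyclin-dependent kinase inhibitor p21 and a canonical p53 target outside the 33, had 11.2, 11.3 and 8.43 FPKM at 40 kPa and 16.4, 15.2 and 15.04 FPKM at 1 kPa in RAP2 tKO cells. WT cells had 10.6, 9.62 and 10.8 FPKM at 40 kPa and 15.02, 15.8 and 15.3 FPKM at 1 kPa. The stiff libraries lay below the soft ones in both genotypes. The change was -0.56 ± 0.14 (adjusted p = 0.035) in RAP2 tKO and -0.54 ± 0.14 (adjusted p = 0.0867) in WT cells. LATS dKO cells had 5.57, 10.8 and 7.03 FPKM at 40 kPa and 7.07, 7.37 and 6.26 FPKM at 1 kPa, which overlapped, a change of 0.11 ± 0.14 (adjusted p = 0.807). Their response differed from that of WT by 0.65 ± 0.20 (adjusted p = 0.257). YAP/TAZ dKO cells had 11.6, 11.2 and 11.4 FPKM at 40 kPa and 12.2, 13.3 and 12.4 FPKM at 1 kPa, a change of -0.13 ± 0.14 (adjusted p = 0.899). The call in RAP2 tKO cells was lost without any 1 of the 3 RAP2 tKO 1 kPa libraries or without 40 kPa replicate 3 (adjusted p up to 0.155).

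Between lines the members differed far more often than with stiffness, as did genes in general. A line comparison is the mean of the differences from WT at both stiffnesses, over 6 libraries of each genotype, and all 3 share the WT libraries. Where a member passed the threshold at 1 stiffness and not at the other, this is no test between the stiffnesses. When stiffness responses were tested against WT, 0 members were called for RAP2 tKO or LATS dKO cells and only DDB2 for YAP/TAZ dKO cells. In RAP2 tKO cells 9 of 32 members were called, 3 higher and 6 lower, where 16% of all genes were called, 7.4% higher and 8.57% lower. In LATS dKO cells 17 members were called, 7 higher and 10 lower, where 33.9% of all genes were called, 16% higher and 17.8% lower. Cells without YAP and TAZ had 18 members called, 12 higher and 6 lower, where 50.6% of all genes were called, 23.6% higher and 27% lower. The median member difference was -0.07, -0.04 and 0.08 in that order, beside -0.000196, -0.01 and 0.00097 over all genes. In all, 24 members were called in some line and 8 of those tested in none (ASCC3, FAS, FBXW7, PHLDA3, PPM1D, RRM2B, SERTAD1 and SPATA18).

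The 8 tested members called in no contrast kept to these ranges over the 24 libraries. The ubiquitin ligase subunit FBXW7 lay between 12.4 and 21.02 FPKM and the phosphatase PPM1D, which dampens p53, between 14.6 and 21.97 FPKM. RRM2B spanned 32.03 to 69.3 FPKM, ASCC3 25.3 to 39.6 FPKM and SPATA18 0.493 to 2.14 FPKM. SERTAD1 spanned 1.32 to 3.10 FPKM, PHLDA3 3.66 to 19.1 FPKM and FAS 4.41 to 7.03 FPKM.

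**Figure D3:**
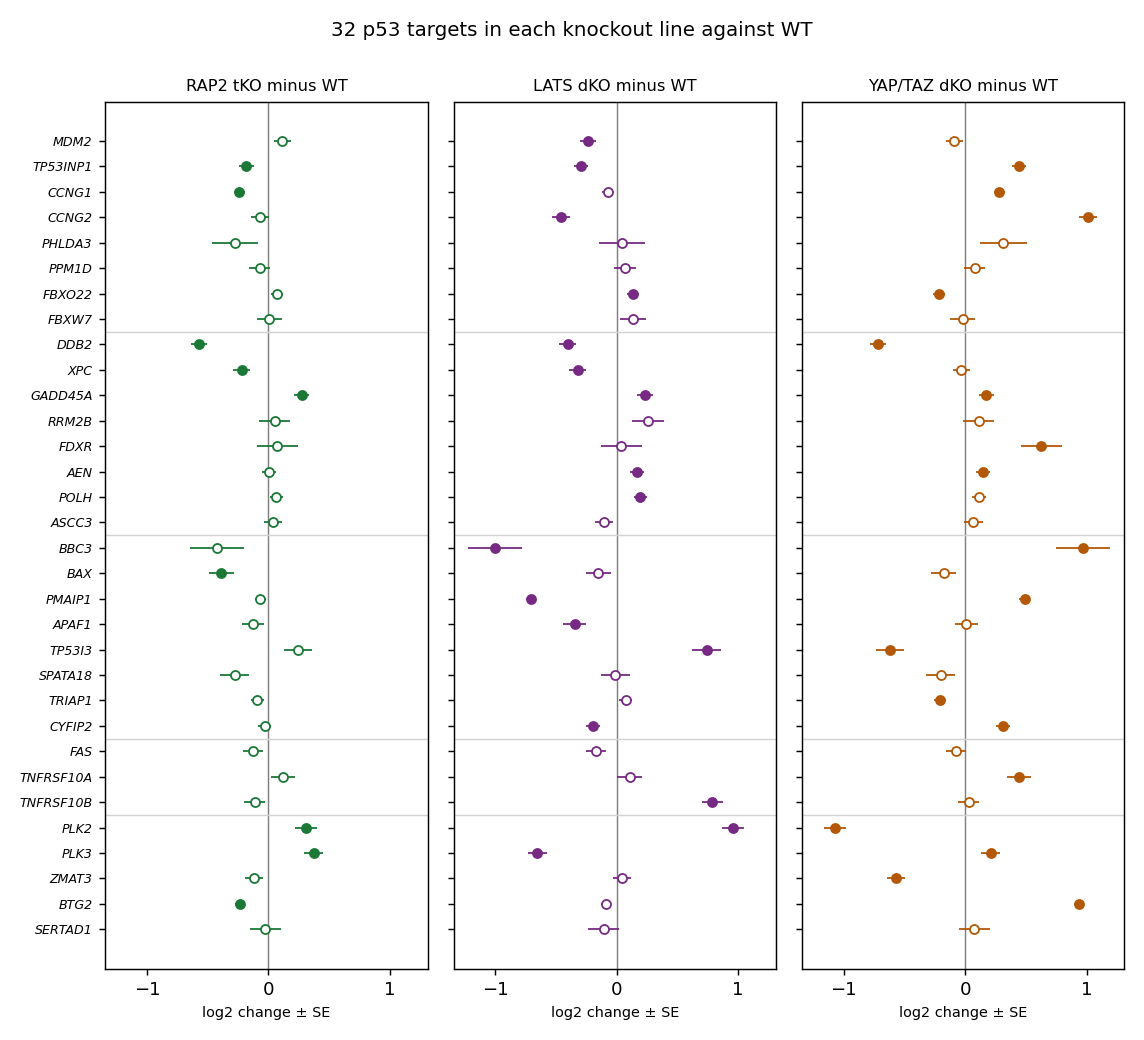
Difference of each of the 32 tested p53 targets from WT (horizontal axes, log2 units on the log2(FPKM + 1) scale, bars ± SE) in cells labelled RAP2 tKO, LATS dKO, then YAP/TAZ dKO. Filled points passed the adjusted threshold and lines part the functional groups. PLK2 lies at 0.96 in LATS dKO and at -1.07 in YAP/TAZ dKO cells, and DDB2 lies left of 0 in all 3 lines.

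Of the 8 members that feed back on p53 or its outputs, 2 fell in RAP2 tKO cells, 1 rose and 3 fell in LATS dKO cells, and 3 rose and 1 fell in YAP/TAZ dKO cells, where 16%, 33.9% and 50.6% of all genes were called in these lines. The 4 of 8 called in YAP/TAZ dKO cells are thus about the share of all genes. CCNG2 had 1.86 to 2.48 FPKM (median 1.97) in LATS dKO and 6.79 to 8.72 FPKM (median 7.23) in YAP/TAZ dKO libraries, against 2.57 to 3.65 FPKM (median 3.19) in WT libraries. The knockout libraries did not overlap WT in either line, below it without LATS and above it without YAP and TAZ. The differences were -0.46 ± 0.07 (adjusted p = 6.46e-05) and 1.01 ± 0.07 (adjusted p = 1.07e-09). CCNG1, a cyclin that brings a protein phosphatase to MDM2, had 194 to 237 FPKM (median 206) in RAP2 tKO and 287 to 311 FPKM (median 303) in YAP/TAZ dKO libraries, against 239 to 259 FPKM (median 249) in WT libraries. It fell in RAP2 tKO, -0.24 ± 0.04 (adjusted p = 0.000924), and rose in YAP/TAZ dKO cells, 0.28 ± 0.04 (adjusted p = 3.61e-05), with no overlap with WT in either. TP53INP1, a stress protein that aids p53 phosphorylation, had 0.193 to 0.515 FPKM (median 0.366) in RAP2 tKO, 0.152 to 0.362 FPKM (median 0.248) in LATS dKO and 0.995 to 1.23 FPKM (median 1.09) in YAP/TAZ dKO libraries, against 0.382 to 0.774 FPKM (median 0.541) in WT libraries. Its differences were -0.18 (adjusted p = 0.0407), -0.29 (adjusted p = 0.000642) and 0.45 (adjusted p = 3.44e-06), which at so low a level understate the ratio. TP53INP1 passed the filter of 1 FPKM in 3 libraries through YAP/TAZ dKO libraries alone, so its call there follows from the filter and the counts that include it are no support. In LATS dKO cells it passed the threshold at 1 kPa, -0.43 (adjusted p = 0.00082), and not at 40 kPa, -0.16 (adjusted p = 0.194), and in RAP2 tKO cells at neither stiffness alone.

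MDM2, the ubiquitin ligase of p53, had 127 to 177 FPKM (median 134) in LATS dKO libraries against 152 to 190.3 FPKM (median 160.0) in WT libraries, which overlapped. It fell there by 0.24 ± 0.07 (adjusted p = 0.0113), with -0.43 at 1 kPa (adjusted p = 0.00301) and -0.04 at 40 kPa (adjusted p = 0.813). The stiffness response of MDM2 differed between LATS dKO and WT cells by 0.39, which was not called. FBXO22, an F-box protein that targets methylated p53, had 111 to 135 FPKM (median 119) in LATS dKO and 84.4 to 103 FPKM (median 92.5) in YAP/TAZ dKO libraries, against 99.6 to 119 FPKM (median 108) in WT libraries. The lines overlapped with WT, and the differences were 0.14 (adjusted p = 0.0394) and -0.21 (adjusted p = 0.00136). The fall in YAP/TAZ dKO cells was -0.10 at 40 kPa (adjusted p = 0.303) and -0.33 at 1 kPa (adjusted p = 0.000999). The difference in LATS dKO cells was 0.21 at 40 kPa (adjusted p = 0.0364) and 0.06 at 1 kPa (adjusted p = 0.588), and its call was lost with the GC correction and without both libraries that stood apart by GC content. PPM1D, PHLDA3 and FBXW7 passed the threshold in no line, with differences between -0.28 and 0.32, both of PHLDA3. Single libraries ended some of these calls. TP53INP1 in RAP2 tKO cells was lost without any 1 of 14 libraries (adjusted p up to 0.108), which were WT 1 kPa replicates 1 and 3, WT 40 kPa replicates 1 and 3, RAP2 tKO 1 kPa replicates 2 and 3, RAP2 tKO 40 kPa replicates 1 and 2 and every YAP/TAZ dKO library. FBXO22 in LATS dKO cells was lost without any 1 of 8 (adjusted p up to 0.105), which were all WT libraries except 1 kPa replicate 1, LATS dKO 1 kPa replicates 1 and 2 and LATS dKO 40 kPa replicate 1.

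Of the 8 members in DNA repair and nucleotide supply, 1 rose and 2 fell in RAP2 tKO cells, 3 rose and 2 fell in LATS dKO cells, and 3 rose and 1 fell in YAP/TAZ dKO cells, beside 16%, 33.9% and 50.6% of all genes called. In YAP/TAZ dKO cells the 4 of 8 are about the share of all genes. The group was set broadly, and its rises in YAP/TAZ dKO cells include FDXR and AEN, whose roles given below are others. DDB2 was lower in all 3 lines. Taken over both stiffnesses its differences from WT were -0.57 ± 0.07 (adjusted p = 8.52e-06) in RAP2 tKO, -0.41 ± 0.07 (adjusted p = 0.000106) in LATS dKO and -0.72 ± 0.07 (adjusted p = 4.69e-08) in YAP/TAZ dKO cells. Split by stiffness, RAP2 tKO cells differed by -0.56 at 40 kPa (adjusted p = 0.000878) and -0.58 at 1 kPa (adjusted p = 0.000708). LATS dKO cells differed by -0.13 at 40 kPa (adjusted p = 0.354) and -0.68 at 1 kPa (adjusted p = 3.31e-05). YAP/TAZ dKO cells differed by -0.18 at 40 kPa (adjusted p = 0.157) and -1.26 at 1 kPa (adjusted p = 7.52e-09). On the soft matrix the libraries of all 3 lines lay below those of WT, whose mean was 48.8 ± 4.04 FPKM (SD, n = 3).

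XPC, the lesion sensor that works beside DDB2, had 12.4 to 16.9 FPKM (median 15.6) in RAP2 tKO and 12.4 to 16.1 FPKM (median 13.9) in LATS dKO libraries, against 14.8 to 21.9 FPKM (median 17.6) in WT libraries, with overlap. Its differences were -0.22 (adjusted p = 0.0362) and -0.32 (adjusted p = 0.00132). XPC in RAP2 tKO cells passed the threshold at neither stiffness alone nor with the GC correction. In LATS dKO cells it passed at 1 kPa, -0.45 (adjusted p = 0.00274), and not at 40 kPa, -0.20 (adjusted p = 0.165). GADD45A, a stress protein that binds the replication clamp, had 12.6 to 15.4 FPKM (median 13.3) in RAP2 tKO, 12.6 to 14.8 FPKM (median 12.96) in LATS dKO and 10.2 to 15.3 FPKM (median 12.8) in YAP/TAZ dKO libraries, against 9.12 to 12.8 FPKM (median 11.2) in WT libraries. It rose in all 3 lines, by 0.27 (adjusted p = 0.00518), 0.23 (adjusted p = 0.00779) and 0.17 (adjusted p = 0.0279), with ranges that overlapped WT. In RAP2 tKO and LATS dKO cells GADD45A passed the threshold at 40 kPa, 0.42 (adjusted p = 0.00547) and 0.39 (adjusted p = 0.00357), and not at 1 kPa, 0.13 (adjusted p = 0.497) and 0.07 (adjusted p = 0.624). For YAP/TAZ dKO it passed at neither alone. FDXR, a mitochondrial reductase, had 19.6 to 22.5 FPKM (median 21.8) in YAP/TAZ dKO libraries against 12.8 to 15.5 FPKM (median 13.2) in WT libraries, without overlap, and rose by 0.63 ± 0.17 (adjusted p = 0.0044), with 0.66 at 40 kPa (adjusted p = 0.037) and 0.60 at 1 kPa (adjusted p = 0.0561). In RAP2 tKO and LATS dKO cells FDXR differed by 0.07 (adjusted p = 0.839) and 0.04 (adjusted p = 0.903).

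AEN, a nuclease that p53 induces in apoptosis, had 43.4 to 53.6 FPKM (median 49.7) in LATS dKO and 46.7 to 50.7 FPKM (median 49.3) in YAP/TAZ dKO libraries, against 42.2 to 45.1 FPKM (median 43.9) in WT libraries, and YAP/TAZ dKO did not overlap WT. The differences of 0.16 (adjusted p = 0.0358) and 0.15 (adjusted p = 0.0373) were small, and neither passed the threshold at 1 stiffness alone. POLH, a polymerase that copies past UV lesions, had 18.3 to 21.7 FPKM (median 21.4) in LATS dKO libraries against 16.2 to 20.5 FPKM (median 18.05) in WT libraries. It rose by 0.19 ± 0.06 (adjusted p = 0.0113), with 0.26 at 40 kPa (adjusted p = 0.0233) and 0.13 at 1 kPa (adjusted p = 0.277). RRM2B, a subunit of ribonucleotide reductase, and ASCC3, a helicase of alkylation repair, passed the threshold in no line. AEN lost its call in LATS dKO cells without any single WT library or any LATS dKO library except 40 kPa replicate 1 (adjusted p up to 0.0923). In YAP/TAZ dKO cells AEN lost it without any 1 library of the 12 compared (adjusted p up to 0.0738). XPC in RAP2 tKO cells was lost without WT 1 kPa replicate 3, WT 40 kPa replicate 1 or 3, RAP2 tKO 1 kPa replicate 1 or 2 or RAP2 tKO 40 kPa replicate 1 or 2 (adjusted p up to 0.0994). GADD45A in YAP/TAZ dKO cells was lost without WT 1 kPa replicate 3, WT 40 kPa replicate 3, YAP/TAZ dKO 1 kPa replicate 2 or 3 or YAP/TAZ dKO 40 kPa replicate 2 (adjusted p up to 0.0877).

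Of the 8 members of mitochondrial apoptosis, 1 fell in RAP2 tKO cells, 1 rose and 4 fell in LATS dKO cells, and 3 rose and 2 fell in YAP/TAZ dKO cells, beside 16%, 33.9% and 50.6% of all genes called. The 1 of 8 in RAP2 tKO and 5 of 8 in YAP/TAZ dKO cells are near the share of all genes. This group too was set broadly, and its counts in LATS dKO and YAP/TAZ dKO cells include CYFIP2, a subunit of an actin complex. The BH3-only genes PMAIP1 and BBC3 fell without LATS and rose without YAP and TAZ. PMAIP1 (chr18:57567180-57571538, hg19) had 61.2 to 74.3 FPKM (median 63.1) in LATS dKO and 135 to 158 FPKM (median 152) in YAP/TAZ dKO libraries, against 99.0 to 116 FPKM (median 107) in WT libraries. BBC3 (chr19:47724079-47736023, hg19) had 2.48 to 8.57 FPKM (median 7.19) in LATS dKO and 23.5 to 34.1 FPKM (median 25.6) in YAP/TAZ dKO libraries, against 10.3 to 17.4 FPKM (median 13.5) in WT libraries. No library of either line overlapped the WT range for these genes. PMAIP1 differed by -0.71 ± 0.04 (adjusted p = 3.80e-10) in LATS dKO and 0.49 ± 0.04 (adjusted p = 2.68e-08) in YAP/TAZ dKO cells, and BBC3 by -1.0003 ± 0.22 (adjusted p = 0.00177) and 0.97 ± 0.22 (adjusted p = 0.0013). These 4 calls held their side of the threshold in all 33 alternatives run. In RAP2 tKO cells PMAIP1 differed by -0.07 (adjusted p = 0.346) and BBC3 by -0.42 (adjusted p = 0.223). TP53I3, a quinone oxidoreductase, moved the other way. It had 2.70 to 3.33 FPKM (median 2.98) in LATS dKO and 0.353 to 0.876 FPKM (median 0.547) in YAP/TAZ dKO libraries, against 1.02 to 1.75 FPKM (median 1.40) in WT libraries, without overlap. Its differences were 0.74 ± 0.12 (adjusted p = 7.03e-05) and -0.62 ± 0.12 (adjusted p = 0.00022).

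**Figure D4:**
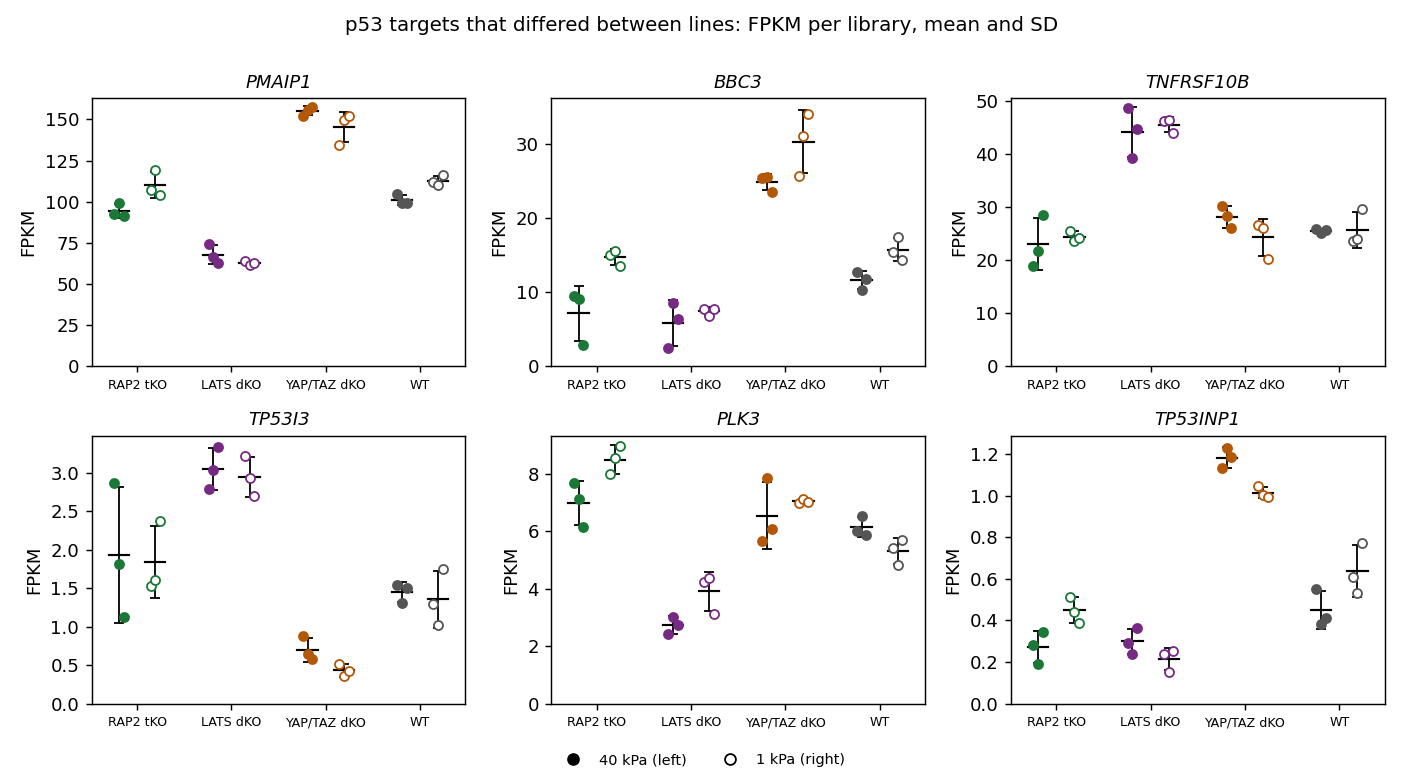
FPKM of PMAIP1, BBC3, TNFRSF10B, TP53I3, PLK3 and TP53INP1 in each library (vertical axes, FPKM from 0), by genotype, with filled points for 40 kPa and open points for 1 kPa. Bars are the mean and SD of 3 libraries. PMAIP1 lies between 61.2 and 74.3 FPKM in LATS dKO and between 135 and 158 FPKM in YAP/TAZ dKO cells, on either side of the 99.0 to 116 FPKM of WT cells.

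BAX had 182 to 357 FPKM (median 319) in RAP2 tKO libraries against 369.8 to 401 FPKM (median 387) in WT libraries, without overlap, with the lowest value in 40 kPa replicate 3, which stood apart by GC content. The difference was -0.39 ± 0.10 (adjusted p = 0.0126), past the threshold at 40 kPa, -0.57 (adjusted p = 0.0176), and not at 1 kPa, -0.21 (adjusted p = 0.483). APAF1, the scaffold of the apoptosome, had 10.4 to 16.03 FPKM (median 13.4) in LATS dKO libraries against 15.2 to 22.3 FPKM (median 16.3) in WT libraries, with overlap. It fell by 0.35 ± 0.09 (adjusted p = 0.0071), with -0.58 at 1 kPa (adjusted p = 0.00356) and -0.12 at 40 kPa (adjusted p = 0.591). The stiffness response of APAF1 differed between LATS dKO and WT cells by 0.46, which was not called. CYFIP2, a subunit of the WAVE actin complex, had 36.4 to 47.6 FPKM (median 42.4) in LATS dKO and 56.03 to 66.3 FPKM (median 60.4) in YAP/TAZ dKO libraries, against 45.7 to 54.4 FPKM (median 48.2) in WT libraries. It fell in LATS dKO, -0.19 (adjusted p = 0.011), with overlap and not past the threshold at 1 kPa alone, and rose in YAP/TAZ dKO cells, 0.31 (adjusted p = 0.000123), without. TRIAP1, a mitochondrial lipid-transfer chaperone, had 45.2 to 49.6 FPKM (median 47.4) in YAP/TAZ dKO libraries against 52.6 to 58.5 FPKM (median 53.8) in WT libraries and fell by 0.21 ± 0.05 (adjusted p = 0.00278), with -0.12 at 40 kPa (adjusted p = 0.206) and -0.29 at 1 kPa (adjusted p = 0.00435). SPATA18, which acts in mitochondrial quality control, passed the threshold in no line.

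Of the 3 death receptors, 1 rose in LATS dKO cells, 1 rose in YAP/TAZ dKO cells, and none was called in RAP2 tKO cells by limma (0 at an unadjusted p below 0.05), beside 33.9%, 50.6% and 16% of all genes called. TNFRSF10B and TNFRSF10A are receptors of the death ligand TRAIL. TNFRSF10B had 39.3 to 48.8 FPKM (median 45.5) in LATS dKO libraries against 23.6 to 29.6 FPKM (median 25.4) in WT libraries, without overlap, a difference of 0.79 ± 0.09 (adjusted p = 1.12e-06). In YAP/TAZ dKO cells TNFRSF10B differed by 0.03 (adjusted p = 0.816). TNFRSF10A had 35.5 to 48.7 FPKM (median 36.2) in YAP/TAZ dKO libraries against 23.2 to 35.3 FPKM (median 27.7) in WT libraries, whose highest value lay just below the lowest of the knockout, a difference of 0.44 ± 0.10 (adjusted p = 0.00127). In LATS dKO cells TNFRSF10A differed by 0.11 (adjusted p = 0.459). FAS, the receptor of FAS ligand, had 4.41 to 7.03 FPKM (median 5.87) in RAP2 tKO, 4.70 to 6.94 FPKM (median 5.40) in LATS dKO and 5.24 to 6.86 FPKM (median 6.04) in YAP/TAZ dKO libraries, against 5.49 to 6.91 FPKM (median 6.57) in WT libraries.

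Of the 5 tested members in growth arrest and signalling, 2 rose and 1 fell in RAP2 tKO cells, 1 rose and 1 fell in LATS dKO cells, and 2 rose and 2 fell in YAP/TAZ dKO cells, beside 16%, 33.9% and 50.6% of all genes called. The 2 of 5 in LATS dKO cells are near the share of all genes. PLK2 (chr5:57749809-57756087, hg19), whose promoter half-site is given with that of DDB2, had 19.9 to 38.1 FPKM (median 28.9) in RAP2 tKO, 37.7 to 50.9 FPKM (median 44.9) in LATS dKO and 8.30 to 11.4 FPKM (median 10.1) in YAP/TAZ dKO libraries, against 19.2 to 25.8 FPKM (median 22.1) in WT libraries. LATS dKO libraries all lay above WT and YAP/TAZ dKO libraries all below it. The differences were 0.31 ± 0.09 (adjusted p = 0.0244), 0.96 ± 0.09 (adjusted p = 1.31e-07) and -1.07 ± 0.09 (adjusted p = 1.22e-08). In RAP2 tKO cells PLK2 differed at 40 kPa, 0.57 (adjusted p = 0.00852), and not past the threshold at 1 kPa, 0.05 (adjusted p = 0.893). PLK3, a related stress kinase, had 6.13 to 8.95 FPKM (median 7.82) in RAP2 tKO, 2.41 to 4.36 FPKM (median 3.07) in LATS dKO and 5.67 to 7.86 FPKM (median 6.99) in YAP/TAZ dKO libraries, against 4.81 to 6.52 FPKM (median 5.77) in WT libraries. Of the 3 lines, LATS dKO did not overlap WT for PLK3 and the others did. The differences were 0.37 ± 0.08 (adjusted p = 0.00254), -0.65 ± 0.08 (adjusted p = 2.69e-06) and 0.21 ± 0.08 (adjusted p = 0.0309). PLK3 in RAP2 tKO cells passed the threshold at 1 kPa, 0.59 (adjusted p = 0.00234), and not at 40 kPa, 0.16 (adjusted p = 0.417). In YAP/TAZ dKO cells it likewise passed at 1 kPa, 0.35 (adjusted p = 0.0167), and not at 40 kPa, 0.07 (adjusted p = 0.667), and the call was lost with the GC correction.

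BTG2 had 4.50 to 6.37 FPKM (median 4.93) in RAP2 tKO and 12.5 to 13.7 FPKM (median 12.9) in YAP/TAZ dKO libraries, against 5.36 to 7.39 FPKM (median 6.30) in WT libraries. It fell in RAP2 tKO, -0.23 ± 0.04 (adjusted p = 0.000672), with overlap, and rose in YAP/TAZ dKO cells, 0.94 ± 0.04 (adjusted p = 1.35e-12), where every library was above every WT library. ZMAT3, an RNA-binding zinc finger protein, had 2.82 to 3.71 FPKM (median 3.18) in YAP/TAZ dKO libraries against 4.70 to 6.61 FPKM (median 5.13) in WT libraries, without overlap, and fell by 0.57 ± 0.08 (adjusted p = 5.06e-06). SERTAD1, a regulator of cyclin-dependent kinase activity, passed the threshold in no line. PLK2 in RAP2 tKO cells lost its call without WT 1 kPa replicate 3, WT 40 kPa replicate 3, RAP2 tKO 1 kPa replicate 1 or RAP2 tKO 40 kPa replicate 3 (adjusted p up to 0.0707). PLK3 in YAP/TAZ dKO cells lost it without WT 1 kPa replicate 2, WT 40 kPa replicate 1 or 3, YAP/TAZ dKO 1 kPa replicate 2 or 3 or YAP/TAZ dKO 40 kPa replicate 2 (adjusted p up to 0.101).

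HEK293-derived lines can differ in chromosome copies. The median difference of the tested genes within 2.5 Mb on either side was therefore set beside that of members called between lines. A selection is given here. In YAP/TAZ dKO cells the neighbours of ZMAT3 had a median of -0.68 over 15 genes, beside -0.57 for ZMAT3. The neighbours of PLK2 had a median of -0.60 over 12 genes, beside -1.07 for PLK2, and those of TRIAP1 -0.26 over 74 genes, beside -0.21. For ZMAT3 and TRIAP1 the region was as low as the gene. The neighbours of AEN had a median of 0.15 over 43 genes, beside 0.15 for AEN, the same to this precision, and those of TNFRSF10A 0.21 over 39 genes, beside 0.44. In LATS dKO cells the neighbours of MDM2 had a median of -0.17 over 21 genes, beside -0.24 for MDM2. Those of PLK3 had -0.23 over 86 genes, beside -0.65, and those of PLK2 0.21 over 12 genes, beside 0.96. The neighbours of BAX in RAP2 tKO cells had a median of -0.16 over 125 genes, beside -0.39 for BAX. The neighbours of DDB2 had a median of -0.21 over 44 genes in YAP/TAZ dKO cells, and of 0.07 over 44 genes in LATS dKO and 0.02 over 44 genes in RAP2 tKO cells. Those of BTG2 (0.07 over 52 genes), CCNG2 (0.14 over 25 genes) and BBC3 (0.06 over 132 genes) stood beside differences of 0.94, 1.01 and 0.97 for the genes in YAP/TAZ dKO cells. Some neighbours went the other way from the gene. Examples are CYFIP2 (-0.29 beside 0.31) and FBXO22 (0.14 beside -0.21) in YAP/TAZ dKO cells and PMAIP1 (0.13 beside -0.71) in LATS dKO cells. For stiffness, the neighbours of DDB2 had a median of -0.07 over 44 genes in RAP2 tKO, -0.03 over 44 genes in YAP/TAZ dKO and -0.02 over 44 genes in WT cells. Neighbours are given here for members only. No such comparison is given for genes of the further lists below, ATR, GTF2H2 and ANKRA2 among them. Copy numbers themselves were not measured, and their part in these differences was not tested.

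Of 24 tested regulators of p53, limma called 0 for stiffness in any genotype, with 5, 1, 1 and 1 at an unadjusted p below 0.05 in RAP2 tKO, LATS dKO, YAP/TAZ dKO and WT cells. Between lines 5 were called in RAP2 tKO (3 higher), 8 in LATS dKO (3 higher) and 13 in YAP/TAZ dKO cells (7 higher). These are 20.8%, 33.3% and 54.2% of the list, near the 16%, 33.9% and 50.6% of all genes called. ATR, the kinase that senses stalled replication, had 7.16 to 9.31 FPKM (median 7.56) in YAP/TAZ dKO libraries against 18.3 to 23.2 FPKM (median 20.4) in WT libraries and fell by 1.29 ± 0.09 (adjusted p = 8.82e-10). PPP1R13B, a coactivator of p53, fell there by 1.22 ± 0.07 (adjusted p = 4.81e-11), with 7.90 to 11.8 FPKM (median 9.68) against 20.04 to 25.3 FPKM (median 24.2) in WT libraries. CHEK2, a kinase that phosphorylates p53, fell in all 3 lines, by 0.33 (adjusted p = 8.25e-05) in RAP2 tKO, 0.34 (adjusted p = 1.97e-05) in LATS dKO and 0.51 (adjusted p = 4.72e-08) in YAP/TAZ dKO cells. RCHY1, a ubiquitin ligase of p53, rose by 0.38 (adjusted p = 5.87e-05) in LATS dKO cells.

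Of 31 other tested genes reported as p53 targets, stiffness calls numbered 6 in RAP2 tKO (1 higher), 0 in LATS dKO (limma, 5 at an unadjusted p below 0.05), 1 in YAP/TAZ dKO (EDA2R, higher) and 2 in WT cells (1 higher). Between lines 8 were called in RAP2 tKO (4 higher), 19 in LATS dKO (8 higher) and 21 in YAP/TAZ dKO cells (9 higher). These are 25.8%, 61.3% and 67.7% of the list, beside 16%, 33.9% and 50.6% of all genes. TNFRSF10D, a decoy receptor of TRAIL, had 21.4 to 22.7 FPKM (median 22.2) in LATS dKO libraries against 9.22 to 9.99 FPKM (median 9.75) in WT libraries and rose by 1.11 ± 0.03 (adjusted p = 1.36e-15). CDKN1A had 5.57 to 10.8 FPKM (median 7.05) in LATS dKO libraries against 9.62 to 15.8 FPKM (median 12.9) in WT libraries and differed by -0.73 ± 0.10 (adjusted p = 1.40e-05). KITLG, EI24 and ANKRA2 fell in YAP/TAZ dKO cells by 0.64, 0.36 and 0.84 (adjusted p = 1.17e-07, 8.47e-07 and 1.06e-06). The deposited confidence interval of KITLG had a median half-width of 133% of its value, so its level is poorly determined.

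Of 25 tested partners of DDB2 and XPC in nucleotide excision repair, limma called 0 for stiffness in any genotype, with 2, 2, 3 and 4 at an unadjusted p below 0.05 in RAP2 tKO, LATS dKO, YAP/TAZ dKO and WT cells. Between lines 5 were called in RAP2 tKO (1 higher), 8 in LATS dKO (4 higher) and 14 in YAP/TAZ dKO cells (8 higher). These are 20%, 32% and 56% of the list, near the 16%, 33.9% and 50.6% of all genes. RAD23B, the partner that stabilises XPC, had 78.1 to 88.7 FPKM (median 83.4) in RAP2 tKO libraries against 115 to 126 FPKM (median 119) in WT libraries and fell by 0.51 ± 0.04 (adjusted p = 4.82e-08). Of the subunits of the repair factor TFIIH, GTF2H1 and GTF2H2 fell in YAP/TAZ dKO cells by 0.58 (adjusted p = 2.87e-09) and 0.60 (adjusted p = 5.36e-07), and GTF2H5 rose by 0.42 (adjusted p = 1.36e-06).

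Of 23 tested genes of the BCL2 family and caspases, stiffness calls numbered 2 in RAP2 tKO (1 higher), 1 in LATS dKO (lower), 0 in YAP/TAZ dKO (limma, 2 at an unadjusted p below 0.05) and 3 in WT cells (1 higher). Between lines 6 were called in RAP2 tKO (4 higher), 11 in LATS dKO (5 higher) and 11 in YAP/TAZ dKO cells (8 higher). These are 26.1%, 47.8% and 47.8% of the list, beside 16%, 33.9% and 50.6% of all genes. BMF, a BH3-only gene like PMAIP1 and BBC3, had 0.842 to 1.58 FPKM (median 1.26) in LATS dKO and 9.23 to 9.81 FPKM (median 9.67) in YAP/TAZ dKO libraries, against 4.49 to 7.81 FPKM (median 5.56) in WT libraries. It fell by 1.59 ± 0.06 (adjusted p = 4.00e-13) in LATS dKO and rose by 0.67 ± 0.06 (adjusted p = 3.85e-08) in YAP/TAZ dKO cells, without overlap in either. HRK, also BH3-only, fell in LATS dKO by 0.86 (adjusted p = 1.48e-08) and rose in YAP/TAZ dKO cells by 0.31 (adjusted p = 0.00093). BCL2, which blocks apoptosis, likewise fell by 0.24 (adjusted p = 0.000236) and rose by 0.68 (adjusted p = 2.13e-10). FADD, the adaptor of death receptors, fell in YAP/TAZ dKO cells by 0.41 (adjusted p = 3.98e-07).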

How the data were processed

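Gene FPKM of 24 libraries was taken from the tables the authors deposited, 1 per library, made with STAR 2.4.2a and Cufflinks 2.2.1 on hg19 per the submitters' processing notes. FPKM scales estimated fragments by transcript length and library depth. The sources used here name no annotation release, strand option or rule for reads with several matches, so overlapping, antisense and near-identical genes may share fragments. Libraries came from a stranded poly(A) kit in index sets A and B per the labels, but the sources used here do not tie libraries to sets, so no such batch could be tested. The series design text calls the libraries biological replicates. Whether they came from separate cultures is not stated, so p-values measure the spread between these libraries.

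Tables hold 60350 entries under 58266 symbols. Entries of the 338 symbols listed several times were summed, and 92 symbols with a failed status in some library were left out. All tests used limma 3.58.1 (R 4.3.3) on log2(FPKM + 1), which understates changes of low genes, for the 15828 genes that reached 1 FPKM in 3 or more libraries. All 24 libraries entered 1 fit with a mean per group (16 residual degrees of freedom) and a trend of the variance on level. Tests were two-sided, p-values were adjusted by Benjamini-Hochberg over all genes, separately for 10 contrasts, with calls below 0.05. The code was tested on simulated data. FPKM holds no counts. Depth was estimated from the deposited confidence intervals of 769 to 896 genes per library. Deposited locus starts, which count from 0, were raised by 1.

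Members called in any contrast are described with their values, other members by range and count. Of each further gene list up to 4 called genes with the smallest p are named, beside CDKN1A. The result of 1 further gene is not reported here. EDA2R, MIR34AHG and the genes shared with them were named after their values were seen. The members and lists were chosen with earlier results of these data known. Alternatives were a pseudocount of 0.1, no filter, median-ratio scaling, correction for GC content (known for 98.0% of tested genes), removal of both libraries skewed by GC, fits of the compared groups alone, a replicate block, each stiffness alone and each library left out.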

Additional observations from a re-analysis of the deposited data

Results flagged for a closer look

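The response of DDB2 to stiffness differed between YAP/TAZ dKO and WT cells by 1.081 (log2, limma adjusted p = 0.000293). All 3 YAP/TAZ dKO libraries at 40 kPa lay above the 3 at 1 kPa, and all 3 WT libraries at 40 kPa lay below the 3 at 1 kPa.

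The response of EDA2R differed between the same genotypes by 0.7271 (adjusted p = 0.000456), and that of MIR34AHG by 0.7536 (adjusted p = 3.48e-05), with all 40 kPa libraries likewise above the 1 kPa ones in YAP/TAZ dKO and below them in WT cells. These 3 differences each held in all 31 alternatives run. EDA2R and MIR34AHG, outside the 33, were picked after their values were seen, by opposite calls in these same libraries. Their differences and how these held therefore follow from the pick and are no support.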

How the results depend on the processing

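Of 52 calls of members, 22 held their direction and side of the threshold in all alternatives run. Counts of members called moved by over 1.5 times as follows. For stiffness in RAP2 tKO (4 called) the count was 2 with no filter, 7 with the GC correction and 0 with the compared groups alone. For YAP/TAZ dKO (1 called) it was 0 with no filter, 0 with the groups alone and 0 with the replicate block. For WT (2 called) it was 4 without both libraries skewed by GC and 0 with the groups alone. The difference of the YAP/TAZ dKO response from WT (1 called) had 3 without both skewed libraries and 3 with the groups alone. Against WT, RAP2 tKO (9 called) had 5 with the groups alone and 4 at 1 kPa only, and LATS dKO (17 called) had 11 at 40 kPa only. Fits of compared groups alone use fewer libraries. At 1 stiffness the fit kept all 24 libraries, but the difference rests on the libraries of that stiffness only. The cause of the other shifts was not tested. The share of all genes called in each alternative is not given beside these counts, nor beside those with single libraries left out. The shifts are therefore no result about the members.

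Leaving out each library in turn gave 2 to 7 for stiffness in RAP2 tKO, 0 to 1 in YAP/TAZ dKO, 1 to 2 in WT, 6 to 10 for RAP2 tKO, 15 to 17 for LATS dKO and 15 to 20 for YAP/TAZ dKO against WT, and 0 to 1 for the LATS dKO response against WT. Between YAP/TAZ dKO and WT, 2 values outside the 33 turned round at 1 stiffness: EDA2R was 0.1159 at 40 kPa only (adjusted p = 0.183) and MIR34AHG was -0.2362 at 1 kPa only (adjusted p = 0.0023).

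Replicate numbers share no stated source. Same-numbered libraries of different groups had deviations from their group means that correlated between -0.247 and 0.149, and 7 of 24 libraries correlated best with their own number. The replicate block changed no other count by over 1.5 times. Depth is lowest in LATS dKO 40 kPa replicate 1, and SPATA18 and TP53I3 are the least precise members tested.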
